A study of Mus musculus with 2 samples.

Results

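The complement genes C1qa, C1qb, C1qc, C3, C4b and C3ar1 were followed in single cells of the normal mouse mammary gland and of EO771 mammary tumors. The 6 genes were chosen by name, and all 6 were present among the 13774 genes of the count table. The questions were how the C1q chains occur together and in what proportions in macrophages, and which myeloid cells and fibroblasts held C3 and C4b. The study set endothelial cells of tumors against those of normal glands, with 1 library per group: NEC for the normal and TEC for the tumor side. Both came from female C57BL6/J mice aged 8 weeks that carried Cdh5Cre-ERT2:ZSGreenl/s/l, in which tamoxifen turns on the green fluorescent protein ZSGreen through a Cre recombinase driven by the endothelial Cdh5 promoter. EO771, a mammary tumor line that shares the strain of the mice, was injected into the mammary fat pad and grown for about 3 weeks, and the NEC library was made from normal counterpart glands. Live ZSGreen+ cells were sorted by flow cytometry and put through the 10x Genomics Chromium 3' kit. The count table used here is labelled "negs", and whether it holds all of the sorted cells was not established. The number of animals behind each library, and whether animals were pooled, is not given in the sources used here.

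Complement is a cascade of plasma and tissue proteins that marks microbes, dying cells and immune complexes. In the classical pathway C1q, built from A, B and C chains, binds its target and acts through the proteases C1r and C1s on C4 and C2, and the resulting enzyme cleaves C3. C3b tags surfaces for uptake, and the small fragment C3a is sensed by the receptor C3AR1. Macrophages are a main source of C1q in tissues, while most plasma C3 and C4 comes from the liver.

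The NEC library held 5228289 UMIs (unique molecular identifiers, 1 for each captured transcript molecule) in 1806 cells, and the TEC library held 16444540 UMIs in 1000 cells. After filtering, 1794 NEC cells with a median of 2259 UMIs and 997 TEC cells with a median of 8594 UMIs remained, and 2 cell barcodes occurred in both libraries. The labels call both libraries endothelial, but none of the 16 clusters met the marker rule for endothelial-like cells. Of 12 endothelial markers 10 were in the table, summing to 37.0 CPM (a gene's UMIs scaled to a fixed total of 1e6 UMIs) in NEC and 65.2 CPM in TEC, with Cdh5, Kdr and Emcn at 0 in NEC and Tek and Cldn5 at 0 in TEC. Levels are given for clusters made without the complement genes, each called by 2 of its leading genes where it has no cell type name of its own. Macrophage or monocyte-like cells numbered 204 in NEC and 571 in TEC, and they came from different clusters. In NEC 88 lay in a cluster led by Lyve1 and Folr2, 108 in one led by Lyz1 and Fcrls, and 8 in one led by Arg1 and Mmp12. In TEC 319 lay in the Arg1 and Mmp12 cluster, 250 in one led by Ccl8 and Ifit3, and 2 in the Lyz1 and Fcrls cluster. A cluster led by Ace and Treml4 held 97 NEC and 32 TEC cells and stayed unnamed, because neutrophil markers stood among its leading genes beside 5 macrophage or monocyte markers. With 1 library per group, differences between animals and between libraries cannot be told apart from those between gland and tumor, no test is possible, and every range in parentheses is a 95% interval for counting error only.

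The C1q chains are encoded side by side on the minus strand of mouse chromosome 4 (GRCm38, GENCODE annotation). C1qb lies at chr4:136880129-136886187, C1qc at chr4:136889804-136893065 and C1qa at chr4:136895917-136898803, with gaps of 3616 and 2851 bases between them. C3ar1 lies at chr6:122847138-122856161, C4b at chr17:34728380-34743882 and C3 at chr17:57203970-57228136, all protein-coding and on the minus strand. Promoter sequence from RefSeq (GRCm38.p6) was held for 4 of the 6 genes. It is shown for the members whose levels followed each other, C1qb, C1qc and C3ar1, and for C3, whose levels did not. Each line runs 5′ to 3′ on the gene's strand and stops before the annotated start of both annotations. The windows are chr4:136886201-136886450, chr4:136893066-136893164, chr6:122856162-122856407 and chr17:57228137-57228386, in the order of the lines. Capitals mark matches, on either strand, to GAGGAAG (a PU.1 motif), TGCTGA (a MAF half-site) or TTGCNNAA (a C/EBP motif).
C1qb: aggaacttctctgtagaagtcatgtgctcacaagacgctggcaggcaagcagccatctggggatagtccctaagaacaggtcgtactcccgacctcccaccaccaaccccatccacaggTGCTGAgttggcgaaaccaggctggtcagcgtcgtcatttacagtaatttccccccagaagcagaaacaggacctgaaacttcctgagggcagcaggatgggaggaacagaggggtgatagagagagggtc
C1qc: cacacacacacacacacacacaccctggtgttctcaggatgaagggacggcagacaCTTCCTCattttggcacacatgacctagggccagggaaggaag
C3ar1: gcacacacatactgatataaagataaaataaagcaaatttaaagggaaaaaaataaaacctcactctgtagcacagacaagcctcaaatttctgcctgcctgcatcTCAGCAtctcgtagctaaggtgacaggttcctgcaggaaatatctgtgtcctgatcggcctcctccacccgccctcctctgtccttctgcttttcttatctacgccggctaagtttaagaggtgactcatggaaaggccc
C3: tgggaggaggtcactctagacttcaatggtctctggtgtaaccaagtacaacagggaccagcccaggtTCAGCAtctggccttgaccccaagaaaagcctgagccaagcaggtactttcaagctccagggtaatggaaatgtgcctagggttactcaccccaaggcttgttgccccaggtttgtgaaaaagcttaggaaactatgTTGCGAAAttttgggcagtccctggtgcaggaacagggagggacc

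The MAF half-site occurred once each in the C1qb, C3ar1 and C3 windows, and 16.1% of all 32851 promoter windows hold it in 250 bases. The PU.1 motif occurred once, in the 99 bases shown for C1qc, against 3.93% of all windows of that length. The C/EBP motif occurred once, in the C3 window, against 9.56% of windows. The ETS and IRF composite motif, TTCNNNGAA (a STAT motif) and GGGANTTCC (an NF-kB motif) had no match in these 4 windows. A match describes letters only and does not show that a factor binds there.

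Almost all C1q UMIs lay in the macrophage or monocyte-like cells in both libraries. These cells held 99.0% of C1qa, 98.7% of C1qb and 99.2% of C1qc UMIs of NEC while being 11.4% of its cells, and 97.7%, 97.5% and 96.7% of those of TEC. The sum of the 3 chains stood at 2903 CPM (2788 to 3021) in the NEC class and 1433 CPM (1399 to 1467) in the TEC class. Outside the class it was 5.96 CPM (3.90 to 8.74) in NEC and 16.8 CPM (14.5 to 19.4) in TEC. T or NK-like cells, which should lack C1q, held 5.89 CPM (3.04 to 10.3) and 14.98 CPM (6.85 to 28.4), the level against which free RNA in the droplets is read.

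Within the class C1q was concentrated in some clusters. The Lyve1 and Folr2 cluster of NEC, whose leading genes are known from tissue-resident macrophages, held 7896 CPM (7571 to 8231) of C1q. C1qa was at 3344 CPM, C1qb at 2903 CPM and C1qc at 1649 CPM in these 88 cells. The Lyz1 and Fcrls cluster of NEC held 361.6 CPM (311.1 to 417.9), and 1 cell gave 34.97% of its C1q UMIs. In TEC, the Ccl8 and Ifit3 cluster held 2536 CPM (2468 to 2605), with C1qa at 949.9 CPM, C1qb at 802.6 CPM and C1qc at 783.6 CPM. The Arg1 and Mmp12 cluster of TEC held 604 CPM (575.4 to 633.6), with C1qa at 182.8 CPM, C1qb at 247.4 CPM and C1qc at 173.7 CPM. The order of these clusters was therefore the same for each chain, with no overlap of the intervals except between the Lyz1 and Fcrls and the Arg1 and Mmp12 clusters for C1qa. The Ace and Treml4 cluster held 1 C1q UMI in 97 NEC cells and 17 UMIs in 32 TEC cells, 58.8% of the latter in 1 cell.

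**Figure D1:**
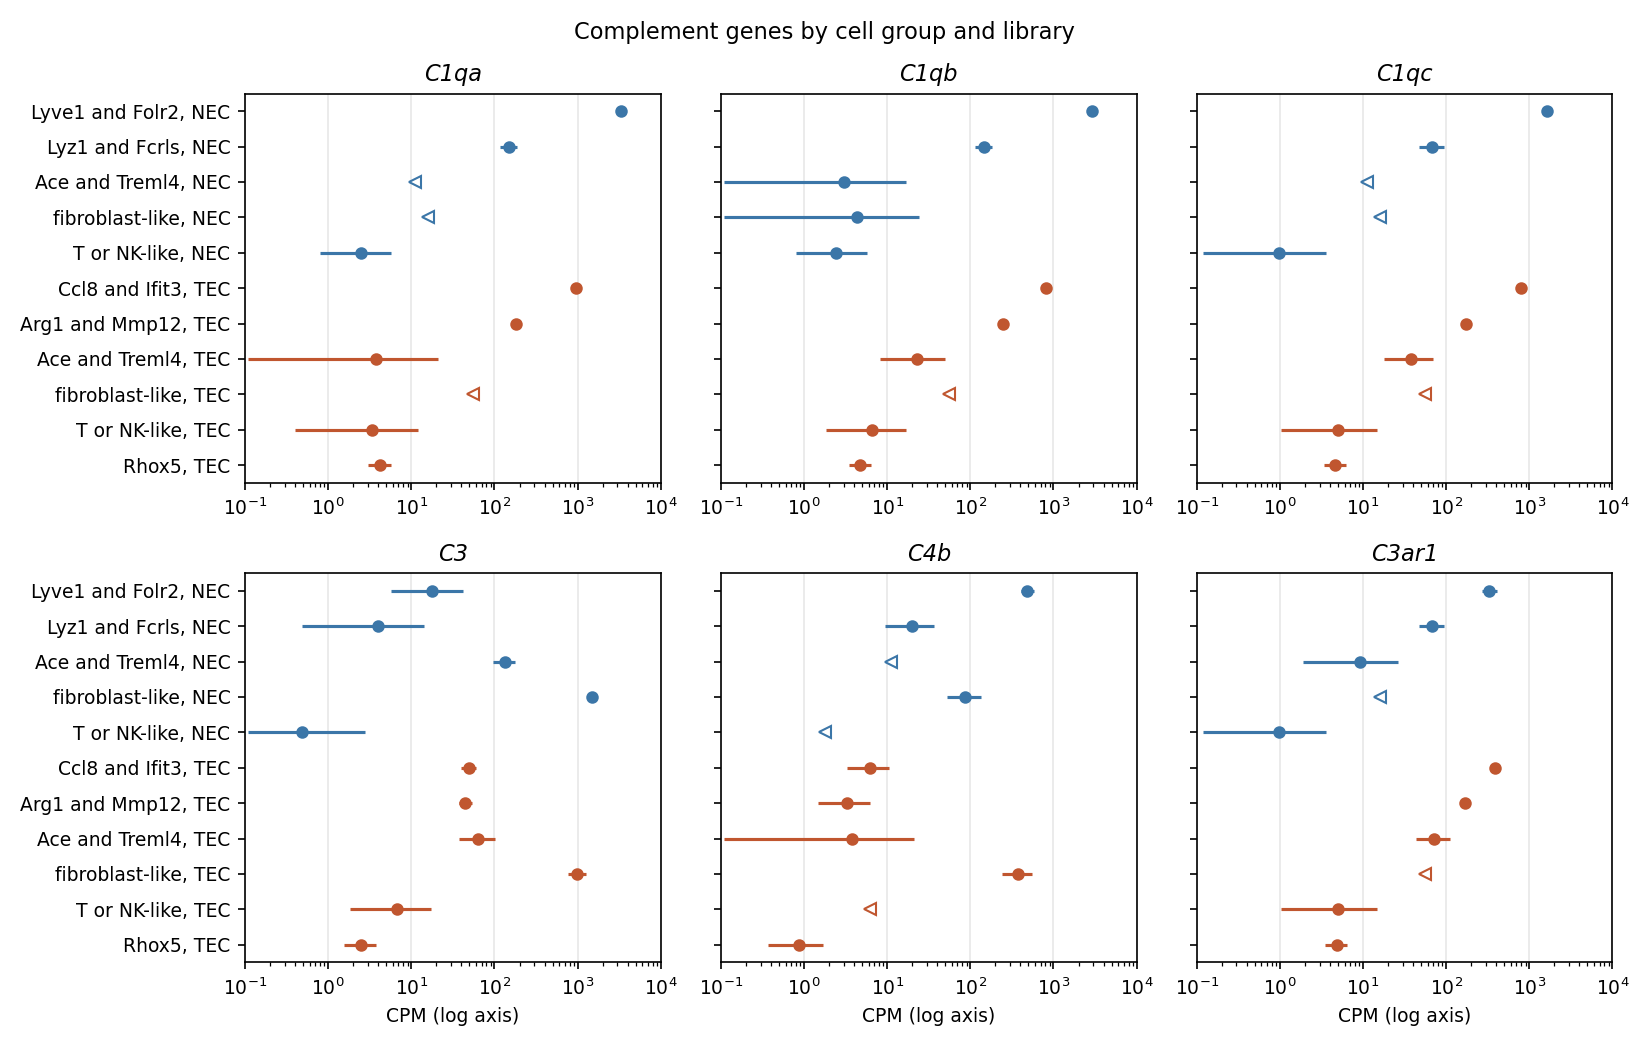
CPM of each member on a log axis in 11 groups of cells, blue for NEC and orange for TEC. Points are levels of summed counts with 95% counting intervals (cut at the left edge of the axis), and open triangles mark the upper limit for groups without a UMI. The C1q chains and C3ar1 share their high groups, C3 is highest in the fibroblast-like cells, and C4b is highest in the Lyve1 and Folr2 cluster of NEC and the 7 fibroblast-like cells of TEC.

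Most cells of the class held either 10 or more C1q UMIs or none. Of the Lyve1 and Folr2 cells 2 of 88 held no C1q UMI, and the cells ran from 0 over a median of 8039.5 CPM to 22367.5 CPM. No C1q UMI was present in 94 of 108 cells of the Lyz1 and Fcrls cluster, 141 of 250 of the Ccl8 and Ifit3 cluster and 229 of 319 of the Arg1 and Mmp12 cluster, although the TEC cells were deeper. The highest cell of TEC reached 22279 CPM, close to the highest of NEC. Cells with 10 or more C1q UMIs numbered 79 in NEC and 117 in TEC and held 95.9% and 96.7% of the class's C1q UMIs. In those cells the level was 8679 CPM (8316 to 9053) in the Lyve1 and Folr2 cluster, 7444 CPM (7244 to 7648) in the Ccl8 and Ifit3 cluster and 3916 CPM (3722 to 4117) in the Arg1 and Mmp12 cluster. The cut of 10 UMIs lies at a lower level in the deeper TEC cells, whose lowest member stood at 869.8 CPM against 2227 CPM in NEC.

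**Figure D2:**
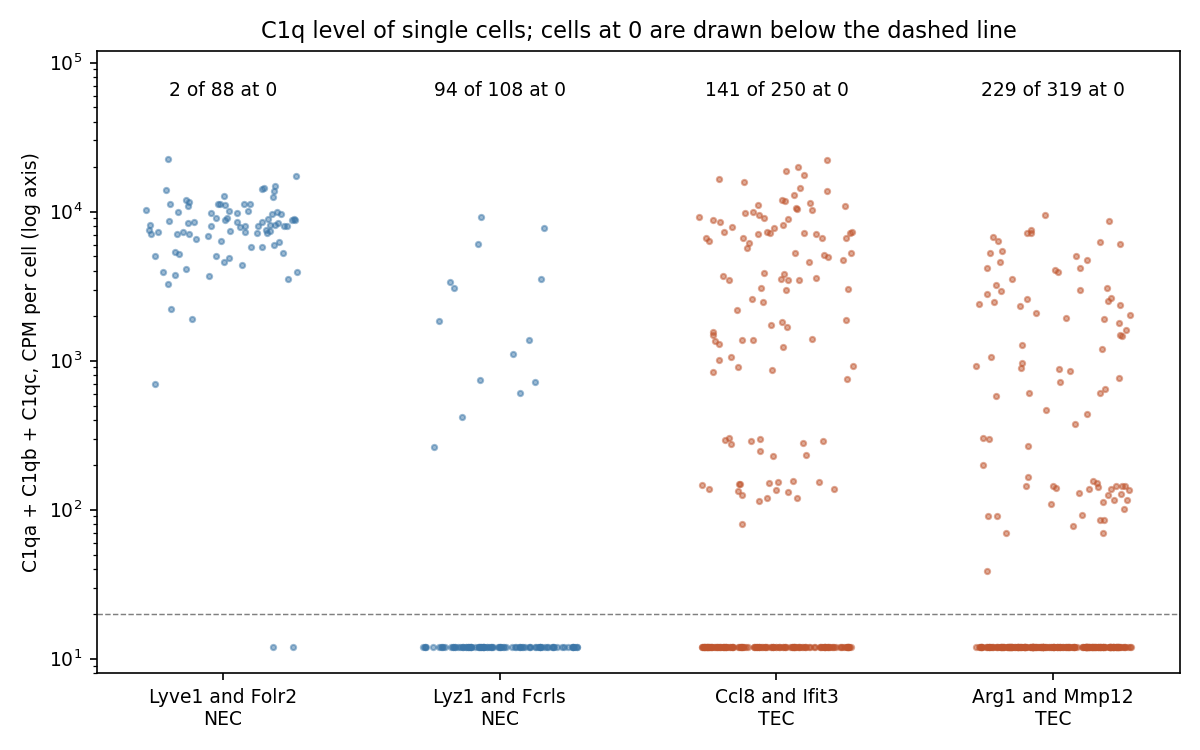
C1q level (C1qa, C1qb and C1qc summed, CPM, log axis) of each macrophage or monocyte-like cell in the 4 main clusters, blue for NEC and orange for TEC. Cells without a C1q UMI are drawn below the dashed line: 2 of 88, 94 of 108, 141 of 250 and 229 of 319 from left to right.

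The chains were found together. All 3 chains were present in 87 of 204 cells of the NEC class, 42.6% (35.8 to 49.7), and in 120 of 571 cells of the TEC class, 21.0% (17.7 to 24.6). A single chain was seen in 5 NEC and 55 TEC cells. The full set was held by 82 of 88 Lyve1 and Folr2 cells, 75 of 250 Ccl8 and Ifit3 cells and 45 of 319 Arg1 and Mmp12 cells. Thinned to 1000 UMIs per cell, with no cell left out, the shares with the full set were 69.3% (58.6 to 78.7), 18.0% (13.4 to 23.3) and 1.88% (0.69 to 4.05). For the whole classes they were 30.9% (24.6 to 37.7) in NEC and 8.93% (6.72 to 11.6) in TEC. Outside the class 0 of 1590 NEC cells, with an upper bound of 0.232% for the share, and 8 of 426 TEC cells held the full set, and none of the 426 did after thinning. The TEC cells outside the class that held any C1q UMI had a median of 38795 UMIs in all, against 7871 for the cells of the class that held any.

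Cells with many C1q UMIs seldom lacked a chain. Among those with 10 or more, 78 of 79 in NEC and 109 of 117 in TEC held the full set. The chain that was absent differed: 1 NEC cell lacked C1qc, while all 8 TEC cells lacked C1qa. Over all cells that held 2 chains, C1qa was the absent one in 13 of 24 in TEC and 0 of 8 in NEC. Of the cells with 1 to 2 C1q UMIs none could hold the full set, and of those with 3 to 9 UMIs 9 of 15 in NEC and 11 of 27 in TEC did.

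The proportions of the chains differed between the libraries, most for C1qc. C1qc gave 20.7% (19.1 to 22.4) of the C1q UMIs in the NEC class and 30.4% (29.3 to 31.5) in the TEC class. C1qa gave 42.2% (40.3 to 44.2) and 35.7% (34.6 to 36.9), and C1qb 37.0% (35.1 to 39.0) and 33.9% (32.8 to 35.0). These are shares of 3'-end UMIs, so each chain is compared with itself between groups and the share is not a ratio of proteins. The low C1qc share was present in both NEC clusters, 20.9% (19.2 to 22.6) in the Lyve1 and Folr2 and 18.6% (13.2 to 24.98) in the Lyz1 and Fcrls cluster. The latter value rests on few cells, as 4 of the 108 held 84.7% of that cluster's C1q UMIs. Both TEC clusters were higher, at 30.9% (29.7 to 32.2) in the Ccl8 and Ifit3 and 28.8% (26.6 to 31.0) in the Arg1 and Mmp12 cluster. Within TEC, C1qa led in the Ccl8 and Ifit3 cluster with 37.5% (36.2 to 38.8), and C1qb in the Arg1 and Mmp12 cluster with 41.0% (38.6 to 43.4).

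**Figure D3:**
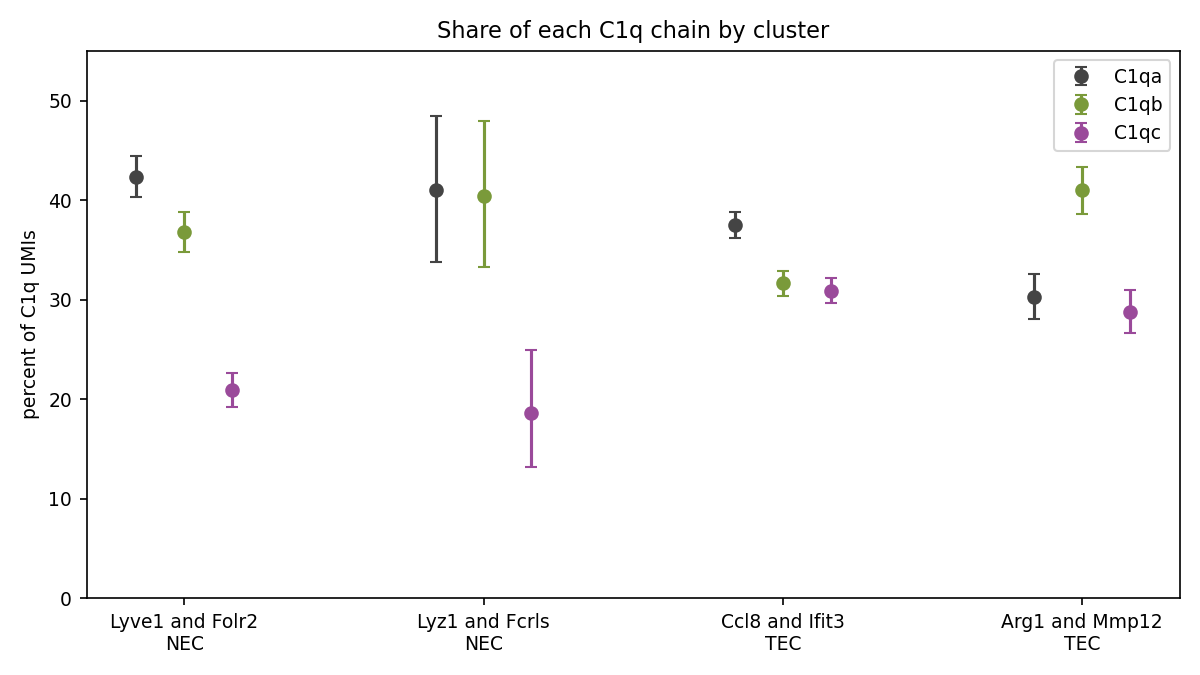
Percent of C1q UMIs that came from each chain in the 4 main clusters, with 95% binomial intervals. C1qc lies at 18.6% and 20.9% in the NEC clusters and at 28.8% and 30.9% in the TEC clusters.

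Averaged over cells, the C1qc and C1qa shares differed in the same directions, and the C1qb share did not. In cells with 10 or more C1q UMIs the C1qc share averaged 20.5% ± 8.22 (SD over 79 cells) in NEC and 31.4% ± 10.9 (SD over 117 cells) in TEC. The C1qa share averaged 42.9% ± 11.4 in NEC and 31.4% ± 13.8 in TEC. The C1qb share averaged 36.7% ± 12.05 in NEC and 37.2% ± 13.0 in TEC, so that C1qb, lower in TEC over summed UMIs, was close to equal over cells. Counting alone would give SDs of 10.7 and 8.95 percentage points for C1qa, so that the spread of C1qa between TEC cells was larger than counting gives, and that between NEC cells was close to it. For C1qb and C1qc the SDs in TEC were 13.0 and 10.9, against 8.81 and 8.57 by counting. In NEC they were 12.05 and 8.22, against 10.4 and 8.74. These SDs are over cells of 1 library each and are not replicate errors.

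Between the classes the C1q chains were lower in TEC by unequal amounts. C1qa fell from 1226 CPM to 512.1 CPM, 2.39-fold (2.22 to 2.58), and C1qb from 1075 CPM to 485.3 CPM, 2.22-fold (2.05 to 2.39). Both met the size rule, a ratio of at least 2 in either direction with an interval that excludes 1, which 6.76% of 6437 genes met in the lower, 28% in the higher and 34.7% in either direction. C1qc was at 601 CPM and 435.4 CPM, a TEC over NEC ratio of 0.724 (0.657 to 0.80), and did not meet it. The median log2 ratio of all genes was 0.49, and that of the 6 members was -0.81. The C1q ratios follow the makeup of the classes: without the Lyz1 and Fcrls cluster C1qc met the rule at 0.304, while with the Ace and Treml4 cluster counted in, C1qa and C1qb were at 0.554 and 0.600 and did not. With NEC cells under 4000 UMIs left out C1qa and C1qb were at 0.614 and 0.675. C1qc was at 0.982 in that setting, close to no difference, and at 0.966 with the Ace and Treml4 cluster counted in. All 3 chains stayed below a ratio of 1 in the 14 alternatives run, but none of these left out the Lyve1 and Folr2 cluster. That cluster held 2222 of the 2405 C1q UMIs of the NEC class and no TEC cell. The rest of the NEC class stood below the TEC class for each chain. C1qa, C1qb and C1qc were at 148.2, 146.2 and 67.2 CPM in the Lyz1 and Fcrls cluster of NEC, and the 8 NEC cells of the Arg1 and Mmp12 cluster held no C1q UMI. Without the Lyve1 and Folr2 cluster the direction therefore turns, with each chain higher in TEC.

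C3, the protein cleaved at the centre of the cascade, stood highest per UMI in the fibroblast-like cells of both libraries. The group that held most of its UMIs differed between the libraries, which had 74 fibroblast-like cells in NEC and 7 in TEC. In NEC the 74 fibroblast-like cells held 346 of 412 C3 UMIs, 84.0% (80.1 to 87.4), at 1491 CPM (1338 to 1656), and 64 of the 74 cells had at least 1. The Ace and Treml4 cluster came next with 44 UMIs, 10.7% (7.87 to 14.1), at 133.1 CPM (96.7 to 178.7). The 204 macrophage or monocyte-like cells held 15 UMIs, 8 of them in the 8 cells of the Arg1 and Mmp12 cluster. In TEC the class held 226 of 355 C3 UMIs, 63.7% (58.4 to 68.7), at 46.2 CPM (40.4 to 52.6). The levels of its clusters overlapped, with 48.9 CPM (39.9 to 59.4) in the Ccl8 and Ifit3 and 44.4 CPM (36.9 to 53.0) in the Arg1 and Mmp12 cluster. The 7 fibroblast-like cells of TEC held 66 UMIs, 18.6% (14.7 to 23.0), at 991.8 CPM (767.1 to 1262), and 1 cell gave 54.5% of them. The 5 neutrophil markers summed to 6462 CPM in these 7 cells, and 3 of the 7 held 3 or more macrophage or monocyte markers. The part of myeloid RNA in their C3 and C4b was not tested. T or NK-like cells stood at 0.491 CPM (0.0124 to 2.74) in NEC and 6.66 CPM (1.81 to 17.0) in TEC.

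C3 was set beside fibroblast transcripts in the same cells, and the picture depended on the transcript. In the fibroblast-like cells there were 346 C3 UMIs beside 1864 of Dcn, the proteoglycan decorin, in NEC, and 66 beside 263 in TEC. The TEC class held 226 C3 UMIs beside 3 of Dcn, and the Ace and Treml4 cluster of NEC held 44 beside 4. The NEC class held 15 beside 8. The 10 fibroblast markers summed to 97.8 CPM in the NEC class, with Pdgfra at 0, and to 241.8 CPM in the TEC class, with Lum, Dpt and Mfap5 at 0, against 44966 CPM and 20257 CPM in the fibroblast-like cells. Beside Gsn, the actin-severing gelsolin, the values lay closer together. There were 226 C3 UMIs beside 1109 of Gsn in the TEC class, 0.204 per Gsn UMI, and 66 beside 447 in the TEC fibroblast-like cells, 0.148 per Gsn UMI. In NEC there were 15 beside 61 in the class, 0.246 per Gsn UMI, and 346 beside 5786 in the fibroblast-like cells, 0.0598 per Gsn UMI. The part of fibroblast RNA in the C3 of the myeloid cells was not tested.

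Between the classes C3 was 2.55-fold (1.51 to 4.64) higher in TEC, from 18.1 CPM to 46.2 CPM, and met the size rule. In the Ace and Treml4 cluster it was 2.08-fold (1.16 to 3.88) lower in TEC, from 133.1 CPM to 64.1 CPM (37.3 to 102.6), where 6.39% of 1361 genes were lower, 10.9% higher and 17.3% either by the rule. The sum of the 5 neutrophil markers moved in the same directions, from 33.8 CPM to 272.1 CPM in the class and from 6524 CPM to 3684 CPM in the Ace and Treml4 cluster, with Cxcr2 at 0 in both NEC groups. Of the 3 markers with enough UMIs in each group, 3 were higher in the class. In the cluster 1 was lower and 2 were neither by the rule. Their part in the C3 ratios was not tested. The class ratio rests on 15 NEC UMIs and on which clusters are counted: with the Ace and Treml4 cluster in the class it was 0.926, and at a clustering resolution of 0.4 it was 0.911. Inside the class, the Arg1 and Mmp12 cluster went the other way. There C3 stood at 195 CPM (84.2 to 384.1) in 8 NEC cells, from 8 UMIs, and at 44.4 CPM (36.9 to 53.0) in 319 TEC cells.

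In the NEC library C4b, the mouse gene for C4, lay mainly in the macrophage or monocyte-like cells. Such shares depend on how many cells of each type the library holds. The NEC class held 147 of 173 C4b UMIs, 84.97% (78.8 to 89.9), and 137 of these lay in the Lyve1 and Folr2 cluster at 486.8 CPM (408.7 to 575.5), in 42 of 88 cells. The Lyz1 and Fcrls cluster stood at 19.8 CPM (9.47 to 36.3), and the fibroblast-like cells at 86.2 CPM (52.6 to 133.1) with 15 of 74 cells. In TEC only 57 C4b UMIs were found, 25 in the 7 fibroblast-like cells (375.7 CPM, 243.1 to 554.6) and 23 in the 571 cells of the class (4.70 CPM, 2.98 to 7.06). T or NK-like cells held 0 C4b UMIs in both libraries, which allows up to 1.47 CPM in NEC and 4.99 CPM in TEC. The class was 37.7-fold (24.2 to 61.4) lower in TEC, and the ratio stayed between 0.0106 and 0.0537 in the 14 alternatives. None of the 14 left out the Lyve1 and Folr2 cluster, which held 137 of the 147 NEC UMIs and no TEC cell. Of the 50-base stretches in the last 500 bases of the longest C4b transcript, 38.1% also occur in transcripts of its near copy C4a, so part of its reads cannot be placed on 1 gene. How such reads were counted is not given in the sources used here, and C4a is not among the genes of the count table.

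**Figure D4:**
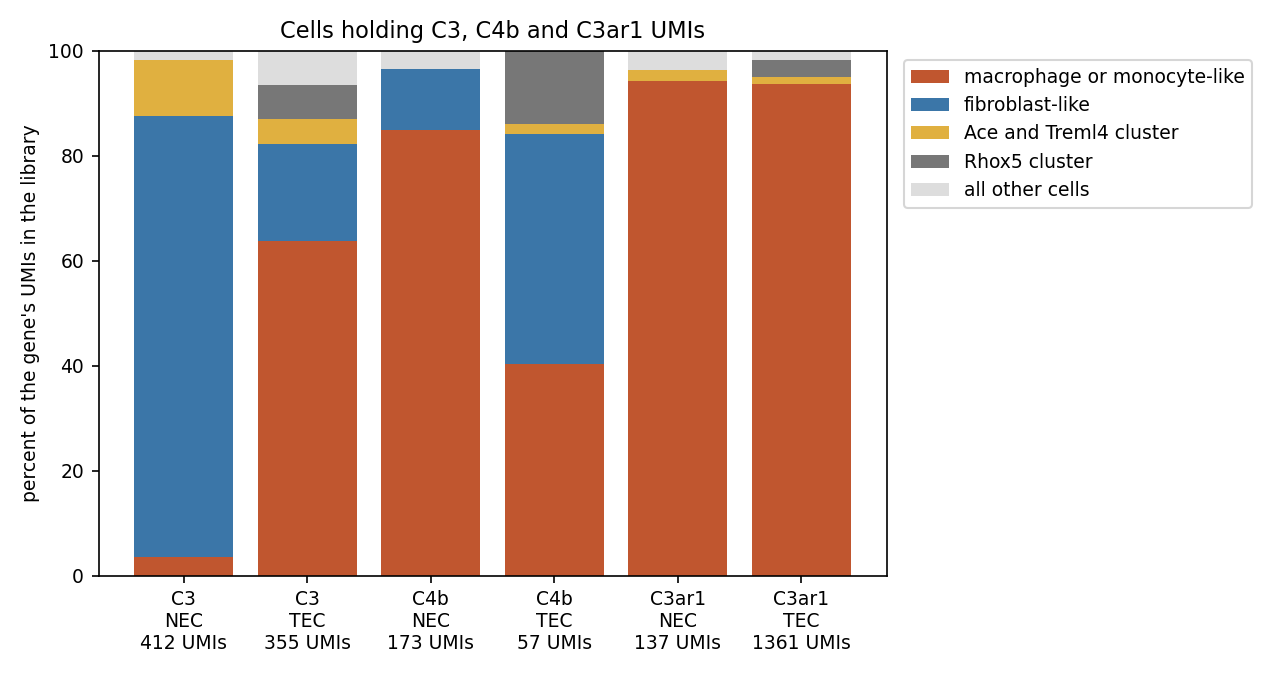
Share of the UMIs of C3, C4b and C3ar1 held by each group of cells, 1 bar per gene and library, with the gene's UMIs in the library under the bar. Fibroblast-like cells hold 84.0% of C3 in NEC and 18.6% in TEC, while the macrophage or monocyte-like cells hold 85.0% of C4b in NEC and 40.4% in TEC.

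C3ar1, the receptor for C3a, was a macrophage transcript in both libraries. The class held 94.2% (88.8 to 97.4) of its UMIs in NEC and 93.6% (92.2 to 94.8) in TEC. Its level was highest in the Ccl8 and Ifit3 cluster of TEC, 384 CPM (357.9 to 411.4), and in the Lyve1 and Folr2 cluster of NEC, 330.5 CPM (266.7 to 404.8), and these intervals overlap. The Arg1 and Mmp12 cluster of TEC followed with 168.3 CPM (153.4 to 184.3), then the Ace and Treml4 cluster of TEC with 71.7 CPM (43.1 to 111.9) and the Lyz1 and Fcrls cluster of NEC with 67.2 CPM (46.5 to 93.9), whose intervals overlap. The Ace and Treml4 cluster of NEC stood at 9.07 CPM (1.87 to 26.5), and the fibroblast-like cells held none, which allows up to 12.9 CPM in NEC and 45.1 CPM in TEC. For the class the ratio was 1.67 (1.39 to 2.02), from 155.7 CPM to 260.4 CPM, and did not meet the size rule. Its direction rests on the Lyz1 and Fcrls cluster, without which it was 0.887, and it was 2.20 and met the rule with the Ace and Treml4 cluster counted in the class or at a clustering resolution of 0.4.

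Cells with C1q also held C4b and C3ar1 more often in NEC. C4b was present in 44 of 100 cells with a C1q UMI, 44% (34.1 to 54.3), and in 3 of 104 without, 2.88% (0.60 to 8.20), and C3ar1 in 54% (43.7 to 64.0) and 17.3% (10.6 to 26.0). This split follows the clusters, since 86 of the 100 lay in the Lyve1 and Folr2 cluster. In TEC, C3ar1 was present in 76.9% (70.4 to 82.6) of cells with C1q and 62.4% (57.2 to 67.3) of cells without. C3 was present in 26.6% (20.6 to 33.3) and 33.3% (28.6 to 38.4), and C4b in 3.02% (1.11 to 6.45) and 3.76% (2.07 to 6.23), so that both pairs of intervals overlap. Within the Ccl8 and Ifit3 cluster alone C3ar1 was present in 88.1% (80.5 to 93.5) of cells with C1q and 73.0% (64.9 to 80.2) of cells without.

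Cells with 10 or more C1q UMIs were set against cells with none, within each class. In NEC, C4b was 41.1-fold (18.4 to 113.9) and C3ar1 5.10-fold (3.29 to 8.10) higher in the C1q cells, where 11.6% of 1540 genes were higher, 8.83% lower and 20.4% either by the size rule. Other complement genes with higher levels there were Fcna (ficolin A, a lectin pathway sensor), 99.5-fold (26.9 to 832.1), and C5ar1 (a C5a receptor), 11.9-fold (6.73 to 22.7). Of the clearance genes, Gas6 (a bridge between dying cells and phagocyte receptors) was 45.5-fold (11.9 to 386.2) higher and Cd36 (a scavenger receptor) 3.65-fold (2.79 to 4.81). Of the transcription factors, Cebpa and Cebpb were higher, at 4.21-fold (2.63 to 6.90) and 2.02-fold (1.84 to 2.22), and Spi1 was at 0.989 (0.710 to 1.37). As 75 of the 79 C1q cells lay in the Lyve1 and Folr2 cluster, these ratios also compare clusters.

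In TEC the C1q cells differed less from the others in complement genes. C3ar1 was 2.05-fold (1.81 to 2.31) higher, where 1.86% of 5599 genes were higher, 2.07% lower and 3.93% either by the rule. The C1q chains made this split in both libraries and are not compared across it. None of the 9 complement receptors with enough UMIs met the rule, C5ar1 among them at 0.954 (0.834 to 1.09), and C3 was at 0.749 (0.519 to 1.06). Pparg and Nr1h3, nuclear receptors of lipid handling, were 3.15-fold (1.96 to 5.07) and 2.45-fold (1.72 to 3.49) higher, Cebpa 2.61-fold (1.96 to 3.46) and Cd36 2.01-fold (1.65 to 2.45). Cebpb, which was higher in the C1q cells of NEC, was at 0.748 (0.711 to 0.785). The difference between the libraries in these ratios was not tested.

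The other complement genes of the class gave the following picture between libraries. Of the receptor list 9 of 11 genes had enough UMIs, 4 were higher in TEC by the size rule and none lower, beside 28% higher and 6.76% lower of all 6437 genes. Cd93, a surface protein linked to phagocytosis, was 20.8-fold (8.09 to 76.8) higher, C5ar1 2.18-fold (1.79 to 2.67), C5ar2 2.31-fold (1.02 to 6.49) and Itgax, a subunit of complement receptor 4, 2.13-fold (1.36 to 3.50). C5ar1 was at 0.976 without the Lyz1 and Fcrls cluster. In the alternative pathway Cfb, the factor B of the C3 convertase, was 5.48-fold (2.74 to 12.8) higher, while Cfp, the stabilizer properdin, was at 0.500 (0.458 to 0.547) and missed the rule. In the lectin pathway Fcna was 94.5-fold (44.4 to 240.3) lower. Fcna stood among the leading genes of the Lyve1 and Folr2 cluster, which held no TEC cell. No gene of the classical list (C1r, C1s, C2 and their relatives) had enough UMIs in these cells.

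Among the clearance genes Axl, a receptor for Gas6, was 4.22-fold (2.57 to 7.46) higher in TEC, while Gas6, Pros1 (protein S, which also bridges) and Cd36 were 10.6-fold (6.68 to 17.2), 7.05-fold (4.25 to 11.7) and 3.36-fold (2.88 to 3.90) lower. The Lyve1 and Folr2 cluster held 52 of 54 Gas6, 18 of 37 Pros1 and 176 of 270 Cd36 UMIs of the NEC class. No TEC cell lay in that cluster. Of the transcription factors, Spi1 (PU.1), Irf8, Nr1h3 and Pparg were higher. Their ratios were 2.08 (1.78 to 2.43), 3.70 (2.72 to 5.17), 26.4 (4.67 to 1050.3) and 2.51 (1.11 to 7.03), with 1 Nr1h3 UMI in NEC. Cebpa was 2.29-fold (1.78 to 2.92) lower, with 64 of its 93 NEC class UMIs in the Lyve1 and Folr2 cluster, while Maf and Cebpb did not meet the rule.

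The fibroblast-like cells of NEC held the next steps of the classical pathway beside C3. The proteases C1s1, C1ra, C1s2 and C1rb stood at 560.1, 228.3, 133.6 and 129.2 CPM there, and their inhibitor Serping1 at 978 CPM (854.9 to 1114). The surface inhibitor Cd55 was at 409.3 CPM. C1q itself was 1 UMI in these 74 cells. In the 7 TEC cells of this type Serping1 was at 1082 CPM (846.6 to 1363) and C1s1 at 375.7 CPM (243.1 to 554.6), with all 7 cells holding both.

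Across 19 sums of cells (cluster by library, at least 20 cells each), the C1q chains followed each other with Pearson r of 0.976 to 0.979 on log2(CPM + 10). These are descriptions over sums that share 2 libraries and their depths, and carry no p. C3ar1 followed the chains with r of 0.917 to 0.968, C4b with 0.558 to 0.608 and C3 with 0.0826 to 0.143. Of 10509 other genes, those most like the C1q sum were Mrc1 (the macrophage mannose receptor, r = 0.960), Pf4 (0.949), Slamf8 (0.906), Saa3 (0.895) and 4930430E12Rik (0.889). Those most like C3ar1 were Pf4 (0.977), Adgre1 (F4/80, 0.938), Mrc1 (0.935), Tlr4 (0.932) and Slamf8 (0.918). Among those most like C4b were Igf1 (0.915), Prg4 (0.882), Kitl (0.878) and 1110046J04Rik (0.863). C3 was most like Thbd (thrombomodulin, 0.892), Dmkn (0.890), Pi16 (0.890), Htra3 (0.879) and Rhoq (0.872).

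Transcripts of T cells occurred in part of the tumor macrophages. A Cd3 UMI was present in 90 of 571 cells of the TEC class and 8 of 204 of the NEC class. In the TEC cells without one, C1qa was at 548.1 CPM (525.3 to 571.7) against 358.4 CPM (321.0 to 399.1) in those with one, and C3ar1 at 272.3 CPM (256.3 to 289.0) against 209.9 CPM (181.5 to 241.5). C3 was at 48.2 CPM (41.6 to 55.5) and 37.7 CPM (26.2 to 52.4). The 9 T or NK markers in the table summed to 97.8 CPM in the NEC class, with Cd8a, Cd4 and Ncr1 at 0, and to 478.6 CPM in the TEC class, with Ncr1 at 0. Their part in the levels of the members was not tested. With these cells left out, none of the 6 members changed its side of the size rule.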

How the data were processed

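The members and gene lists were chosen with earlier results of these data known. The deposited table gives UMI counts per gene and cell, made by the authors without normalization as far as the values show; the tools named are mm10, Seurat, STAR (version 2.5.1b) and Cell Ranger (version 2.0.2), per the submitters' processing notes, with settings not given in the sources used here. Cells named "control" were taken as NEC on that word alone and "tumor" as TEC. The UMI floors of the libraries differ (1157 and 6376), so an unstated cut may set shares of cells.

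The filter asked for 500 genes and 1000 UMIs per cell and allowed a mitochondrial share of 10%. Scrublet in scanpy 1.11.5 called 7 NEC and 3 TEC doublets, under 0.5% of cells, so most doublets may remain. Leiden clustering (2000 variable genes, 30 components, 15 neighbors, resolution 0.8, no integration) left out 36 complement genes. A cluster was named from at least 3 markers at 50 CPM, in 10% of cells and 2-fold above other cells with 5 CPM added, unless another class led its top 10 genes. UMIs were summed per library and class. CPM has exact Poisson, shares exact Clopper-Pearson and ratios conditional Clopper-Pearson 95% intervals, for genes with at least 50 UMIs over both sums. A count of 0 allows 3 counts. Intervals cover counting error only. Simulated data with known changes were used to test the scripts. Levels within cells with 10 or more C1q UMIs, missing chains and C3 beside Dcn were computed after seeing the data. Named genes are the members, list genes that met the size rule or reached 50 CPM in a class, and the 5 genes most like a member. Python 3.11.15, numpy 2.4.6, scipy 1.17.1 and pandas 2.3.3 were used. Results of some list genes are not reported here.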

Additional observations from a re-analysis of the deposited data

Results flagged for a closer look

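The C3 ratio of TEC over NEC went in opposite directions in the 2 groups of myeloid cells. It was 2.55 (1.51 to 4.64) in the macrophage or monocyte-like cells and 0.482 (0.258 to 0.860) in the Ace and Treml4 cluster, with 1 library on each side. The sum of the 5 neutrophil markers went in the same directions, from 33.8 to 272.1 CPM in the first group and from 6524 to 3684 CPM in the second. Their part in the C3 ratios was not tested, and neither was the difference between the ratios. Within the first group, the Arg1 and Mmp12 cluster was lower in TEC. It stood at 195 CPM (84.2 to 384.1) in 8 NEC cells and 44.4 CPM (36.9 to 53.0) in 319 TEC cells.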

How the results depend on the processing

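No paired analysis was possible because each group has 1 library. C1qa no longer met the size rule with a 1000-gene filter (0.572), resolution 0.4 (0.555), NEC cells under 4000 UMIs left out (0.614) or the Ace and Treml4 cluster counted (0.554), and C1qb likewise (0.563, 0.590, 0.675 and 0.600). C1qc met it with a mean over cells (0.493) or the Lyz1 and Fcrls cluster left out (0.304). C3 missed it with the 1000-gene filter (1.68) or the Lyz1 and Fcrls cluster left out (1.15), and turned at resolution 0.4 (0.911) or with the Ace and Treml4 cluster counted (0.926). C3ar1 met it at resolution 0.4 (2.20) or with the Ace and Treml4 cluster counted (2.20), and turned with the Lyz1 and Fcrls cluster left out (0.887). C4b was lower by the rule throughout, though no setting left out the Lyve1 and Folr2 cluster. The C1qc share stayed inside its counting interval throughout. The settings on the Lyz1 and Fcrls cluster and the Ace and Treml4 cluster were chosen after seeing the data. The cause of the changes was not tested beyond the cells these clusters hold. TMM-type scaling shifted all log2 ratios by -0.31; 1182 genes were then higher and 709 lower (62.5% of calls higher) against 1800 and 435 (80.5%). The higher genes were 1149 without the Lyz1 and Fcrls cluster, and the lower ones 789 with no UMI minimum. The full set of chains after thinning moved in NEC to 21.95% (resolution 0.4), 20.7% (cells under 4000 UMIs left out), 20.9% (Ace and Treml4 cluster counted) and 63.5% (Lyz1 and Fcrls cluster left out), and in TEC to 14.0% at 2000 UMIs. C3ar1 in NEC moved to 115.3, 113.9 and 294.6 CPM (resolution 0.4, Ace and Treml4 cluster counted, Lyz1 and Fcrls cluster left out) and in TEC to 293.3 CPM (1000-gene filter). The NEC fibroblast-like share of C3 was 78.4% with cells under 4000 UMIs left out. The TEC class's share of C3 was 51.3% (1000-gene filter), 57.6% (doublets kept), 57.7% (resolution 1.2), 70.2% (cells with a Cd3 UMI left out) and 70.8% (without the richest cell). Of the list genes, these turned: Cebpb to 0.990 (1000-gene filter), 0.861 (resolution 0.4), 0.813 (TMM-type), 0.972 (mean over cells), 0.855 (Ace and Treml4 cluster counted) and 0.730 (Lyz1 and Fcrls cluster left out); C1qbp to 0.984 (TMM-type); and, with the Lyz1 and Fcrls cluster left out, C5ar1 to 0.976, Lrp1 to 0.961, Stab1 to 0.836 and Maf to 0.649. No ratio could be had for Nr1h3 without the richest cell, or for Nr1h3 and Pparg without the Lyz1 and Fcrls cluster, as NEC then held none. Of the 6 members, C3 had the fewest UMIs in the NEC class, 15.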
